A study of Mus musculus with 6 samples.

Results

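Of the 53278 genes in the deposited count table, 8 genes of antigen presentation were taken by their symbols, and all 8 were found. H2-Aa, H2-Ab1 and H2-Eb1 encode chains of the surface MHC class II molecules, Cd74 the invariant chain, H2-DMa a chain of the peptide exchange factor, Ciita the transactivator of these genes, and Cd80 and Cd86 the B7 ligands of CD28 and CTLA-4. They were measured by RNA-seq in type 2 innate lymphoid cells (ILC2s), innate lymphocytes that make IL-5 and IL-13. The ILC2s were sorted from visceral adipose tissue of C57BL/6 mice aged 8 weeks that had received 3 intraperitoneal injections of 1 µg IL-33. Both groups were cultured with IL-2 (10 ng/mL) and IL-7 (10 ng/mL), and by the labels for 48 h. Another part of the study's text gives a shorter time of culture. The DTA-1 group also received DTA-1 at 5 µg/mL, an agonistic antibody to the receptor GITR, and the control group received the isotype control antibody. Each group had 3 libraries, and each library was prepared from 10 ng of RNA. The sort kept cells positive for CD45, ST2 and CD117 and removed cells that carried a lineage marker, among them CD45R of B cells, CD11c and CD11b of myeloid cells and FcεRI of mast cells and basophils.

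MHC class II molecules are pairs of an α and a β chain that carry peptides of endosomal origin to the cell surface, where CD4+ T cells read them. New pairs bind the invariant chain, proteases of the endosome cut it down to a fragment in the groove, and H2-DM exchanges that fragment for other peptides, while H2-O restrains H2-DM. CIITA binds no DNA by itself and is recruited by the RFX, CREB and NF-Y factors, which sit on the X and Y boxes of class II promoters. CD80 and CD86 give T cells the costimulatory signal that accompanies the peptide, and ILC2s have been described to carry class II molecules and to exchange signals with CD4+ T cells. C57BL/6 mice have the H-2b haplotype, in which the Eα gene is not functional, so that the chain encoded by H2-Eb1 lacks its partner.

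The X and Y boxes are shown because they are the DNA elements that the class II genes have in common, whatever their level in these cells. RefSeq windows (GRCm38.p6) from 250 bases before to 50 bases after the start of transcription were matched by symbol, which gave windows for 4 of the 8 genes (H2-Aa, H2-Eb1, H2-DMa and Cd80). The stretches below run from 140 to 30 bases before the start on the gene's own strand, for H2-Aa (chr17:34287853-34287963, minus strand), H2-Eb1 (chr17:34305727-34305837, plus strand) and, for comparison, for H2-Ob (chr17:34238765-34238875, plus strand) and H2-Eb2 (chr17:34325535-34325645, plus strand). Capitals mark the Y box core ATTGG, a part of the X box written AACNNATG, and the CREB site TGACGTCA.
H2-Aa: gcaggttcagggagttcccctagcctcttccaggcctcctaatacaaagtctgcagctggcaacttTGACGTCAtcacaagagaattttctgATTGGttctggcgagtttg
H2-Eb1: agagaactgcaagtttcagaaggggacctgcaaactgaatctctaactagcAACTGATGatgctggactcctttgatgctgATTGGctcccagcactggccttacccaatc
H2-Ob: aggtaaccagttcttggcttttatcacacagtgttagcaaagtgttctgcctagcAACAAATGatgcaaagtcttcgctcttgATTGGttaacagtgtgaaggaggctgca
H2-Eb2: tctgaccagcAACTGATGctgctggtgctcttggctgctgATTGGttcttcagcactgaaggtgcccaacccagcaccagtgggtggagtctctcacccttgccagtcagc
In H2-Aa the Y box core began 48 bases before the start and the CREB site 74 bases before it. In H2-Eb1 the X box part began 89 bases and the Y box core 59 bases before the start, a distance of 30 bases. A further Y box core lay on the opposite strand of H2-Eb1, 35 to 31 bases before the start, and is not in capitals. The distance was also 30 bases in H2-Eb2, 28 bases in H2-Ob and 31 bases in H2-DMb1, whereas the window of H2-Oa held the Y box core alone, 43 bases before the start. The 3 motifs were searched on both strands, and the matches named here did not overlap each other. ATTGG was present in 37.4% of all 32851 windows, AACNNATG in 8.86% and TGACGTCA in 1.79%. The X box part followed by the Y box core on the same strand, 24 to 36 bases on, was present in 18 windows (0.0548%) of 17 genes, and 5 of the 17 were class II chains (H2-Eb1, H2-DMb1, H2-DMb2, H2-Ob and H2-Eb2). The window of H2-DMb2 lay 1942 bases from the start of the deposited gene, so its match is counted but not shown. This spacing of 24 to 36 bases was chosen after the positions in the class II windows had been seen. The window of Cd80 held neither the Y box core nor the X box part, and those of H2-DMa lay 9664 and 12350 bases from the start of the deposited gene and were not used. H2-Ab1, Cd74, Ciita and Cd86 had no entry.

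**Figure D1:**
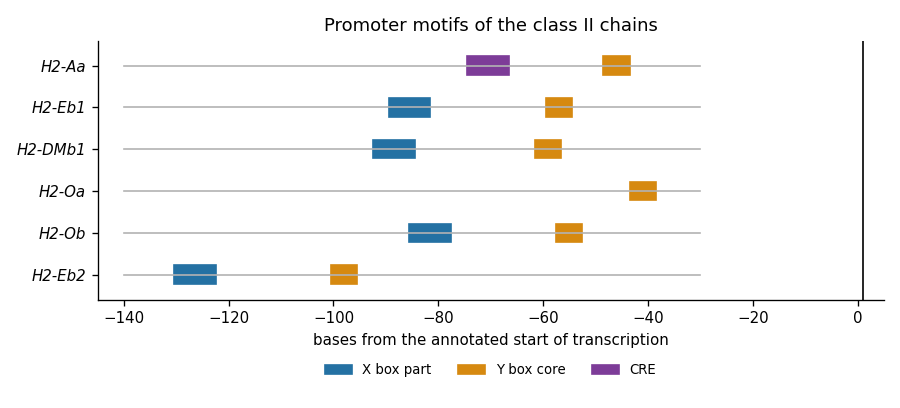
Positions of the X box part, the Y box core and the CREB site (CRE) before the start of transcription (horizontal axis, in bases, with the start as the vertical line) in 6 class II genes, on the gene's strand. In H2-Eb1, H2-DMb1, H2-Ob and H2-Eb2 the X box part precedes the Y box core by 28 to 31 bases, and H2-Oa shows the Y box core alone.

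The total count per library was 30569351 to 35131329. Normalized counts are CPM, that is counts scaled to the size of the library, after TMM normalization, and a count of 0 allows up to 3 counts, equal to 0.0854 to 0.0981 CPM, for counting error only. The groups were compared in edgeR (quasi-likelihood F test, p values adjusted after Benjamini and Hochberg over 14361 genes), and a gene passed the test with an adjusted p under 0.05 and at least a 1.5-fold change. By the chi-square per degree of freedom between count profiles, the library labelled DTA-1 replicate 1 was nearer to the isotype control libraries (9.60 to 11.3) than to the other two DTA-1 libraries (27.1 and 28.2), so results that turn on it are also given without it. DTA-1 replicate 1 was picked out from the same counts that are tested. P values without it are thus likely too small and serve as description only. The receptor of DTA-1 was present in every library, with Tnfrsf18, which encodes GITR, at 657 to 756 normalized counts. The labels do not say whether the libraries came from separate mice or cultures, so the p values measure the spread between these libraries, which may be technical. As in all bulk RNA, fewer cells of a type and less RNA per cell cannot be told apart.

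H2-Ab1, Cd74 and H2-DMa were well detected in the libraries of both groups, H2-Eb1, Ciita and H2-Aa were low, and Cd80 and Cd86 were near the limit of detection. Of the 7 genes that passed the filter on low counts, 0 passed the test, beside 0% of all genes tested. At an unadjusted p under 0.05 with at least a 1.5-fold change 1 of 7 was counted, Cd74, beside 2.35% of all genes. By DESeq2's Wald test 0 of the 8 were called, beside 0.152% of all genes. A gap between the groups, with no overlap of libraries, was seen for 0 of the 7, beside 11.3% of all genes. The median log2 fold change of the 7 genes was 0.05, and that of all genes tested was -0.01. Without DTA-1 replicate 1 the median turned to -0.30 over 8 tested genes, beside -0.015 for all genes. In that fit 1 of 8 genes passed the test, again Cd74, beside 0.744% of all genes.

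**Figure D2:**
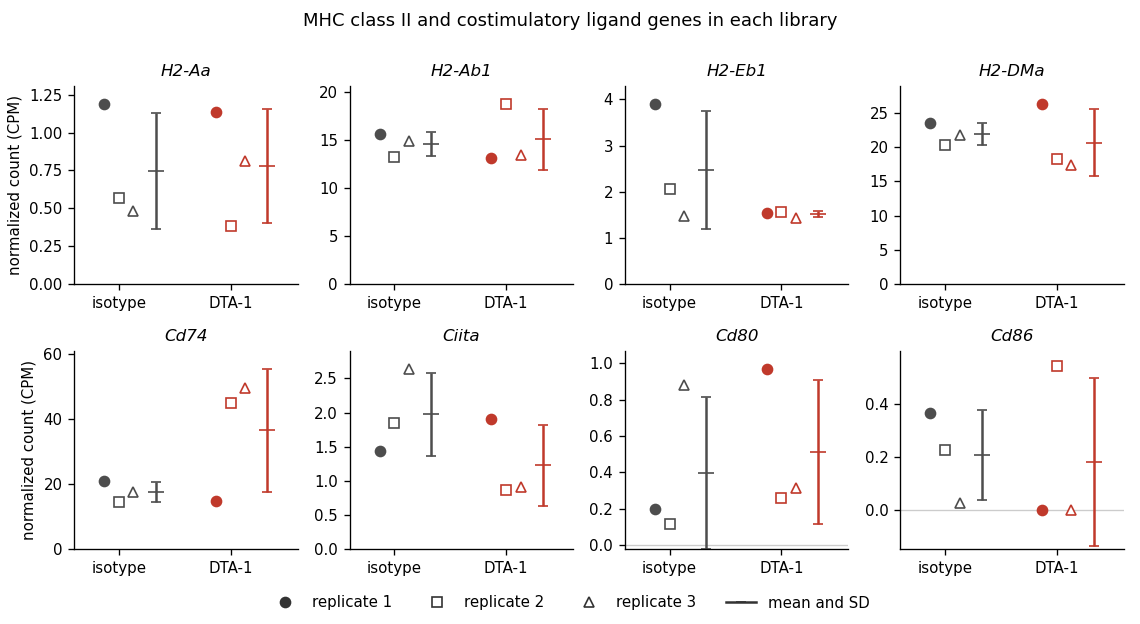
Normalized count (vertical axis, CPM, a separate scale in each panel) of the 8 genes in the 3 isotype control libraries (grey) and the 3 DTA-1 libraries (red), with the mean and SD of each group. Cd74 stands at 45.0 and 49.5 in DTA-1 replicates 2 and 3, above the 14.6 to 20.8 of the isotype control libraries, and the groups overlap in every panel.

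Among the surface chains, H2-Ab1 (chr17:34263209-34269419), which encodes the β chain of the I-A molecule, had 15.7, 13.3 and 15.0 normalized counts in isotype control replicates 1, 2 and 3. In DTA-1 replicates 1, 2 and 3 it had 13.1, 18.8 and 13.4. DTA-1 replicate 2 was the highest library and the other two DTA-1 libraries lay within the range of the isotype control or just under it. The group means (SD, n = 3 each) were 14.6 ± 1.24 for isotype control and 15.1 ± 3.17 for DTA-1. Its log2 fold change was 0.05 (SE 0.17, 95% interval -0.32 to 0.42, edgeR adjusted p = 0.969), the narrowest interval among the surface chains.

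H2-Aa (chr17:34282744-34287828), the α chain that pairs with it, was counted 42, 20 and 17 times in isotype control against 35, 12 and 26 times in DTA-1. These counts equal 1.19, 0.570 and 0.482 normalized counts in isotype control against 1.13, 0.384 and 0.816 in DTA-1. Replicate 1 was the highest of each group, and the groups spanned nearly the same range. The log2 fold change was 0.06 (SE 0.57, 95% interval -1.20 to 1.31, edgeR adjusted p = 0.991), so that a 2-fold change in either direction lay inside the interval at this depth.

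H2-Eb1 (chr17:34305877-34316200), the β chain of the I-E molecule, had 3.90, 2.05 and 1.47 normalized counts in isotype control against 1.55, 1.57 and 1.44 in DTA-1. The DTA-1 libraries were close together, with a mean of 1.52 ± 0.0687 (SD, n = 3), and the isotype control libraries were spread from that level upwards, with a mean of 2.48 ± 1.27 (SD, n = 3). The log2 fold change was -0.70 (SE 0.39, 95% interval -1.56 to 0.16, edgeR adjusted p = 0.738). It was -0.21 without isotype control replicate 1, which is the one library with a value above 3. The Eα pseudogene of this strain, H2-Ea-ps, was at 0 counts in all 6 libraries.

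Cd74 (chr18:60803848-60812647), the invariant chain, had the largest log2 fold change of the 7 tested genes. Its counts were 737, 513 and 618 in isotype control against 462, 1406 and 1579 in DTA-1, or 20.8, 14.6 and 17.5 against 14.9, 45.0 and 49.5 normalized counts. DTA-1 replicates 2 and 3 stood above every isotype control library, at 2.55 and 2.81 times the isotype control mean, and DTA-1 replicate 1 stood inside the isotype control range, at 0.846 times that mean. The group means were 17.7 ± 3.10 and 36.5 ± 18.8 (SD, n = 3 each). With all libraries the log2 fold change was 1.05 (SE 0.39, 95% interval 0.14 to 1.96, edgeR adjusted p = 0.657) and did not pass the test. Without DTA-1 replicate 1 it was 1.42 (SE 0.15, 95% interval 1.09 to 1.75, edgeR adjusted p = 0.00129), which passed, and over all alternatives the adjusted p ran from 0.00129 to 0.999. A call for Cd74 thus rested on leaving out 1 library, which was picked out from the same counts.

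H2-DMa (chr17:34135182-34139102), the α chain of the exchange factor H2-DM, had 23.5, 20.3 and 21.8 normalized counts in isotype control against 26.2, 18.2 and 17.4 in DTA-1. DTA-1 replicate 1 was the highest of the 6 libraries and DTA-1 replicates 2 and 3 were the lowest, whereas DTA-1 replicates 2 and 3 were the highest for Cd74. The log2 fold change was -0.08 (SE 0.16, 95% interval -0.44 to 0.27, edgeR adjusted p = 0.942), and without DTA-1 replicate 1 it was -0.30 (SE 0.13, edgeR adjusted p = 0.342). Neither passed the test.

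Ciita (chr16:10488178-10527565), the transactivator, was counted 51, 65 and 93 times in isotype control against 59, 27 and 29 times in DTA-1. As normalized counts these are 1.44, 1.85 and 2.64 in isotype control against 1.91, 0.865 and 0.910 in DTA-1. The libraries in which Cd74 was high, DTA-1 replicates 2 and 3, were the lowest for Ciita, and DTA-1 replicate 1 lay within the isotype control range. Its log2 fold change was -0.69 (SE 0.42, 95% interval -1.62 to 0.25, edgeR adjusted p = 0.752), and -1.15 (SE 0.43, edgeR adjusted p = 0.261) without DTA-1 replicate 1. The value is uncertain, because Ciita shares 25035 bases with Dexi on the opposite strand, which had 1349 to 1941 counts, and whether the authors' counting used strand is not given in the sources used here.

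The costimulatory ligands were at the edge of detection. Cd80 (chr16:38458933-38486934) was counted 7, 4 and 31 times in isotype control against 30, 8 and 10 times in DTA-1. One library of each group, isotype control replicate 3 and DTA-1 replicate 1, held most of its counts. The log2 fold change was 0.37 (SE 0.82, 95% interval -1.43 to 2.17, edgeR adjusted p = 0.949). Cd86 (chr16:36603869-36666082) was counted 13, 8 and 1 times in isotype control against 0, 17 and 0 times in DTA-1, which sum to 22 and 17 counts. It was removed by the filter on low counts, and no difference between the groups was detectable at this depth.

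**Figure D3:**
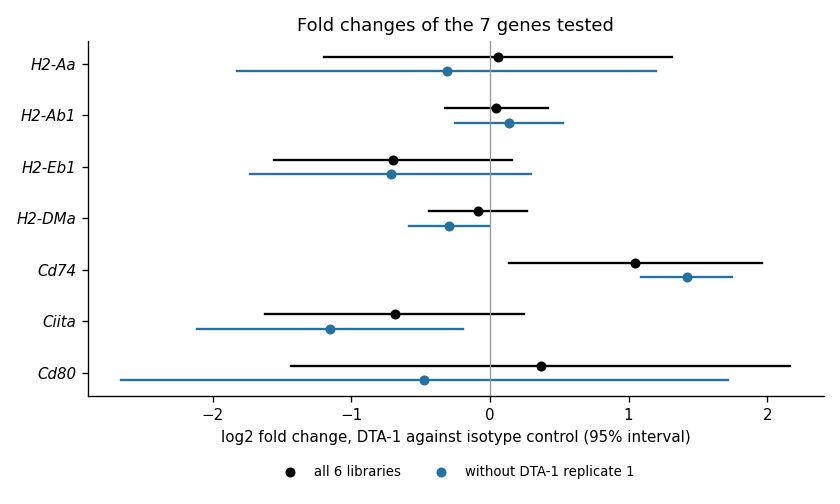
Log2 fold change of DTA-1 against isotype control (horizontal axis) with its 95% interval for the 7 genes that passed the filter, with all 6 libraries (black) and without DTA-1 replicate 1 (blue). With all libraries the interval of Cd74, 0.14 to 1.96, lies above 0 and the other 6 intervals span 0.

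To compare levels between genes, normalized counts were divided by the length of the longest annotated transcript in kilobases. In isotype control the levels per kilobase were 12.5 for Cd74, 12.1 for H2-Ab1 and 10.9 for H2-DMa, and the libraries of these neighbours overlapped. They were followed by 1.48 for H2-Eb1, which was separate from H2-DMa above it and from Ciita below it in every library. Ciita was at 0.329, H2-Aa at 0.232, Cd80 at 0.125 and Cd86 at 0.0819, and the libraries of each gene overlapped those of the next. In DTA-1 the order was the same at the top, with Cd74 at 25.9, H2-Ab1 at 12.5 and H2-DMa at 10.3, each overlapping the next, and H2-Aa (0.241) and Ciita (0.204) changed places with overlapping libraries. The order of the 3 highest depended on the length used. With the union of all annotated exons in place of the longest transcript, Cd74 was at 10.5 in isotype control, H2-DMa at 6.34 and H2-Ab1 at 5.70, so that H2-DMa and H2-Ab1 were over 1.5 times lower and changed places. The median level of tested genes was 6.34 per kilobase of longest transcript and 4.72 per kilobase of exon union. Over all 6 libraries Cd74 lay at percentile 72.2 of the tested genes, H2-Ab1 at 63.2, H2-DMa at 60.2, H2-Eb1 at 25.9, Ciita at 8.30, H2-Aa at 7.30, Cd80 at 3.50 and Cd86 at 1.00. With the union of exons H2-Ab1 lay at percentile 53.7 and H2-DMa at 55.1.

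The chains of one molecule were not at matching levels. Per kilobase of the longest transcript, H2-Ab1 was 30.8 to 130.0 times as abundant as its partner H2-Aa across the 6 libraries, and 17.2 to 72.2 times with the union of exons. The size of this ratio depends on the lengths, since the longest transcript was 1212 bases for H2-Ab1 and 3223 bases for H2-Aa. It is also imprecise, as H2-Aa had only 12 to 42 counts in a library. H2-DMa was 2.94 to 6.24 times (2.05 to 4.34 times with the union of exons) as abundant as H2-DMb1, its β chain, whose reads may be split with its close copy H2-DMb2. H2-Oa, the α chain of H2-O, was 42.5 to 260.0 times as abundant as the β chain H2-Ob, and 81.6 to 499 times with the union of exons. This ratio is imprecise too, as H2-Ob had 12 to 68 counts in a library. The ratio of Cd74 to H2-Ab1 was 1.14, 0.948 and 1.01 in isotype control against 0.978 in DTA-1 replicate 1, and it was 2.06 and 3.17 in DTA-1 replicates 2 and 3. With the union of exons as the length these ratios were 1.69 to 2.03 in the first 4 libraries and 3.67 and 5.64 in DTA-1 replicates 2 and 3. Whether Cd74 and the β chain were at equal levels in the 4 libraries thus depended on the length, and in both scalings the ratio was highest in DTA-1 replicates 2 and 3.

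**Figure D4:**
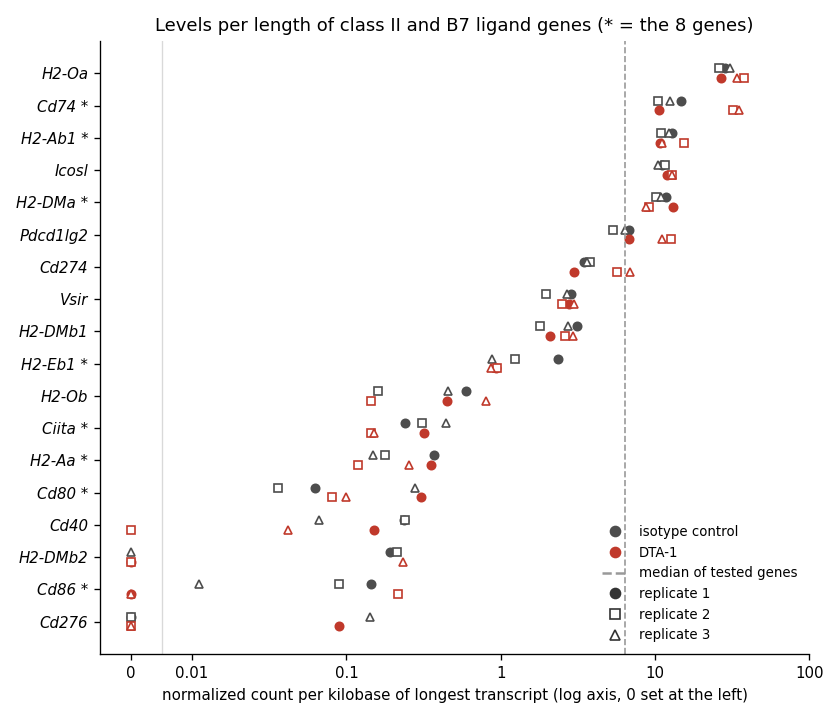
Normalized count per kilobase of the longest transcript (horizontal log axis, libraries at 0 set at the left) of the 8 genes (asterisks), other class II chains, other B7 family ligands and Cd40, 1 point for each library. H2-Oa, Cd74, H2-Ab1, Icosl and H2-DMa lie above the median of tested genes (dashed line, 6.34) in every library, as they do with the union of exons against its own median of 4.72, and H2-Aa, Cd80 and Cd86 lie below 0.5 in every library.

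The other genes of the pathway were read from 7 lists of 59 symbols, of which 56 were in the table and 47 passed the filter. In the fit of all 6 libraries 0 of the 47 passed the test, 19 had a positive and 28 a negative log2 fold change, and the median was -0.03 on the log2 scale beside -0.01 for all genes. The groups did not overlap for 3 genes that were higher and 3 that were lower in DTA-1, of 47, beside 11.3% of all genes. Without DTA-1 replicate 1, 3 of 48 passed the test, Cd274 and Pdcd1lg2 with higher and Icos with lower values in DTA-1, beside 0.744% of all genes.

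Among the other class II chains, 3 of 6 passed the filter and their log2 fold changes were all positive but did not pass the test. H2-Oa had 38.0, 34.7 and 40.8 normalized counts in isotype control against 35.9, 50.2 and 45.5 in DTA-1, with DTA-1 replicates 2 and 3 the highest libraries (log2 fold change 0.21, SE 0.13, edgeR adjusted p = 0.748). H2-Oa is overlapped by the antisense gene BC051537, which had 2.07 to 8.24 counts. H2-DMb1 had 2.54 to 4.35 normalized counts, and H2-Ob 0.384 to 2.13. H2-Eb2, whose promoter carries both boxes at the spacing seen in H2-Eb1, was at 0 counts in all libraries.

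All 10 factors of the class II promoter were tested. Nfyb (84.7 to 96.2 normalized counts) and Nfyc (58.0 to 66.4), which encode subunits of the Y box factor NF-Y, had the highest normalized counts of this list, and the coactivators Crebbp and Ep300 had 42.6 to 54.1 and 38.8 to 54.4. Ep300 was the one factor whose groups did not overlap, with lower values in DTA-1 (log2 fold change -0.30, SE 0.10, edgeR adjusted p = 0.632), and it did not pass the test. The RFX subunits Rfx5, Rfxap and Rfxank, which bind the X box, had 27.1 to 38.3, 40.6 to 50.4 and 21.0 to 25.6 normalized counts. Rfxank overlaps Nr2c2ap on the opposite strand (518 to 894 counts), and its values are uncertain for the same reason as those of Ciita. Per kilobase of the longest transcript each of the 10 factors lay above Ciita in every library.

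In the interferon-γ pathway, which drives Ciita in many cells, Ifng was at 0 counts in every library, and the receptor and its signalling chain were present. Jak1 had 570 to 750 normalized counts, Socs1 525 to 599, Ifngr1 172 to 227 and Jak2 146 to 175. None of the 8 tested genes of this list passed the test, with 3 positive and 5 negative log2 fold changes.

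Genes of class II turnover and antigen processing likewise had 0 calls among 4 and 11 tested. Sppl2a, a protease that clears the last piece of the invariant chain, had 79.5 to 88.0 normalized counts, and the ubiquitin ligase gene March8 had 17.4 to 25.2. Ctsd (1370 to 1433), Ctsb (438 to 490), Cst3 (362 to 453) and Ctsz (340 to 424) had the highest normalized counts of the processing genes, and Ctsb shares 775 bases with Fdft1 on the opposite strand. Ctss, whose protease cuts the invariant chain, had 14.7, 8.67 and 10.4 normalized counts in isotype control against 12.0, 17.9 and 18.3 in DTA-1, so that DTA-1 replicates 2 and 3 were again the highest libraries (log2 fold change 0.52, SE 0.22, edgeR adjusted p = 0.675). Lgmn had 31.0, 34.6 and 33.1 normalized counts in isotype control against 25.3, 25.9 and 24.3 in DTA-1 (log2 fold change -0.39, SE 0.10, edgeR adjusted p = 0.627), and Ctsh was likewise lower without overlap (log2 fold change -0.35, SE 0.09). Both encode endosomal proteases, and neither passed the test. Rfx5, Rfxap, Rfxank, Ctss, Lgmn, Ctsh and Ep300 were singled out after their values had been seen.

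Where Cd80 and Cd86 were near 0, other ligands of the B7 family were present. Icosl, the ligand of ICOS, had 31.4, 32.6 and 29.4 normalized counts in isotype control against 33.8, 36.2 and 36.1 in DTA-1, higher in DTA-1 without overlap (log2 fold change 0.18, SE 0.10, edgeR adjusted p = 0.732). Pdcd1lg2, which encodes the PD-1 ligand PD-L2, had 11.7, 9.29 and 11.1 normalized counts in isotype control against 11.7, 22.0 and 19.2 in DTA-1. Cd274, which encodes PD-L1, had 12.6, 13.7 and 13.2 in isotype control against 10.7, 20.5 and 25.0 in DTA-1. For both, DTA-1 replicates 2 and 3 stood above all isotype control libraries, as for Cd74. DTA-1 replicate 1 was level with the highest isotype control library for Pdcd1lg2 and below the lowest for Cd274. With all libraries the log2 fold change was 0.72 (SE 0.22, edgeR adjusted p = 0.627) for Pdcd1lg2 and 0.51 (SE 0.25, edgeR adjusted p = 0.702) for Cd274, which did not pass the test. Without DTA-1 replicate 1 they were 0.95 (edgeR adjusted p = 0.0167) and 0.79 (edgeR adjusted p = 0.0259), which passed. Vsir had 9.47 to 14.5 normalized counts, and Vtcn1 was at 0 counts throughout. Cd40, the partner of CD40L, was in the same list although it is not of the B7 family, and had 0 to 0.713. Cd40 and Vtcn1, and Ctla4 among the receptors, were likewise singled out after their values had been seen.

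Of the receptors for these ligands, Pdcd1 (153 to 165 normalized counts) and Icos were abundant in the same libraries. Cd28 (0.320 to 2.43) and Ctla4 (0.416 to 1.05), the receptors of CD80 and CD86, were low. Reads of Ctla4 may be shared with the processed pseudogene Rpl18-ps1 inside it. Icos had 156, 173 and 157 normalized counts in isotype control against 156, 99.0 and 98.4 in DTA-1, so that DTA-1 replicates 2 and 3 were the lowest libraries. Its log2 fold change was -0.46 (SE 0.15, edgeR adjusted p = 0.627) with all libraries and -0.72 (edgeR adjusted p = 0.00129) without DTA-1 replicate 1, where it passed the test. Btla, listed with them although it is not a receptor of class II or B7 ligands, had 0.194 to 2.29 normalized counts.

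**Figure D5:**
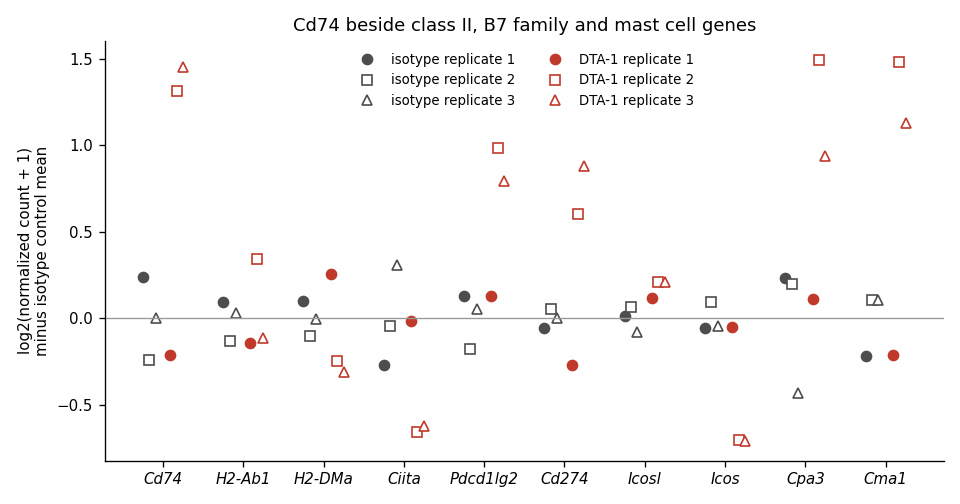
Log2(normalized count + 1) minus the isotype control mean (vertical axis) for Cd74 and 9 other genes, with isotype control libraries in grey and DTA-1 libraries in red. DTA-1 replicates 2 and 3 lie above the other libraries for Cd74, Pdcd1lg2, Cd274, Icosl, Cpa3 and Cma1. They lie below the other libraries for H2-DMa, Ciita and Icos. DTA-1 replicate 1 lies below the isotype control libraries for Cd274.

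The class II genes are also carried by dendritic cells, B cells and macrophages, so the defining markers of these cells were read in the same libraries. All 15 ILC2 markers were detected, with summed levels of 14670 to 15460 normalized counts in isotype control against 15680 to 20250 in DTA-1, led by Il5. Without Il5 the sums were 9611 to 10050 in isotype control against 10060 to 10560 in DTA-1. Of the 15 markers, 6 had positive and 9 negative log2 fold changes, with a median of -0.027. Of the 10 B cell markers, Ms4a1 and Pax5 were at 0 in every library. The summed level of the 10 was 26.6 to 29.3 in isotype control against 28.1 to 28.4 in DTA-1, nearly all from Cd79b and Ighm. Of 10 dendritic cell markers Clec9a was at 0 in every library and Flt3 had at most 12 counts. Their summed level was 48.8 to 53.9 in isotype control against 48.1 to 53.0 in DTA-1, of which Xcr1 alone gave 44.4 to 47.7. Of 12 macrophage or monocyte markers C1qb was at 0, and the summed level was 6.87 to 12.9 in isotype control against 9.45 to 12.6 in DTA-1, led by Cd68. For B cells, dendritic cells and macrophages or monocytes the groups overlapped in the summed level, and DTA-1 replicates 2 and 3 did not stand above the isotype control range. Without the gene with the highest level in each list, DTA-1 replicate 3 stood above it for dendritic cells (6.24 against 2.37 to 6.15 in isotype control) and for macrophages or monocytes (5.93 against 2.74 to 4.96). DTA-1 replicate 2 did not, at 6.05 and 1.25. Of single markers Zbtb46 of dendritic cells, singled out after its values had been seen, had 0.481, 1.14 and 0.794 normalized counts in isotype control against 1.23, 2.43 and 1.22 in DTA-1 (log2 fold change 1.01, SE 0.47, edgeR adjusted p = 0.698). DTA-1 replicates 2 and 3 stood above isotype control also for Itgax (0.54 and 1.38 against 0.31 to 0.51) and Lyz2 (0.86 and 0.85 against 0 to 0.71). Cd79a of B cells was at 0.29 to 0.50 in DTA-1 against 0.028 to 0.25. These were likewise singled out, with at most 44 counts in a library. Of the tested markers, 3 of 5 of dendritic cells, 2 of 4 of macrophages or monocytes and 1 of 2 of B cells had positive log2 fold changes. The part of these cells in the levels of the 8 genes was not tested. The 8 T cell markers summed to 43.6 to 55.0 in isotype control against 49.9 to 54.2 in DTA-1, led by Cd3g, with Cd8a at 0. The 8 eosinophil or neutrophil markers summed to 6.22 to 7.89 and 3.11 to 6.60, led by Ccr3, with S100a8 and S100a9 at 0. The 6 markers of ILC3 or lymphoid tissue inducer cells summed to 1.11 to 1.62 and 0.961 to 1.94, with Il17a and Il23r at 0.

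A pair of mast cell genes was high in the same libraries as Cd74. Cpa3 had 7.49, 7.30 and 4.37 normalized counts in isotype control against 6.83, 19.4 and 12.8 in DTA-1, and Cma1 had 3.67, 4.85 and 4.85 in isotype control against 3.69, 14.2 and 10.9 in DTA-1. With all libraries their log2 fold changes were 1.03 (edgeR adjusted p = 0.627) and 1.10 (edgeR adjusted p = 0.632), which did not pass the test. Without DTA-1 replicate 1 they were 1.33 (edgeR adjusted p = 0.0391) and 1.49 (edgeR adjusted p = 0.00960), and both passed. They were 2 of the 6 genes tested from the mast cell or basophil list of 8, beside 0.744% of all genes. Others of the list followed Cd74 in part or not at all. Mcpt8 had 0.735, 0.656 and 1.16 normalized counts in isotype control against 0.421, 0.192 and 0.690 in DTA-1 (log2 fold change -0.96, edgeR adjusted p = 0.748). Tpsb2 (8.26) and Hdc (28.8) stood above the isotype control range in DTA-1 replicate 2 and within it in DTA-1 replicate 3 (4.96 and 16.6). The 8 genes together summed to 28.9 to 49.2 normalized counts in isotype control against 40.1, 73.6 and 49.7 in DTA-1 replicates 1, 2 and 3. Without Hdc, the gene with the highest level, the sums were 16.5 to 21.7 in isotype control against 16.1, 44.9 and 33.1 in DTA-1. In the sum of all 8, DTA-1 replicate 2 stood above the isotype control range and DTA-1 replicate 3 only barely (49.7 against at most 49.2). In the sum without Hdc both stood above it. Cpa3 and Cma1 gave most of that sum in DTA-1 replicates 2 and 3, so it largely restates these 2 genes. Mcpt4 and Ms4a2 were at 0 in 4 and 3 of the 6 libraries, and Fcer1a, whose product FcεRI was gated out in the sort, had 0.765 to 2.85 normalized counts in isotype control against 1.52 to 3.11 in DTA-1. The part of these cells in the level of Cd74 was not tested.

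The genes whose pattern was most like the class II chains were found by the Pearson correlation over the 6 libraries, on log2(normalized count + 1), with the mean of H2-Aa, H2-Ab1, H2-Eb1 and Cd74, each scaled to the same mean and SD. Among 9814 genes with a mean of at least 5 normalized counts the 5 most like were Phb (r = 0.97), Kdelr1 (r = 0.97), Nfyc (r = 0.97), Nol7 (r = 0.97) and Wbp4 (r = 0.96), and 54 genes had r of at least 0.9. The 4 averaged genes did not themselves share a pattern (over the same libraries r was -0.46 for H2-Aa with H2-Ab1 and -0.27 for H2-Aa with Cd74), so the likeness is to a mean of unlike profiles. The 5 genes differed little between libraries, Phb from 91.4 to 104 normalized counts, with isotype control replicate 1 the highest library for all 5. For Cd74 alone, a comparison added after its values had been seen, the 5 most like were Ebi3, Iqgap3, Bin1, Rasgrp4 and Gstm1 (r = 0.994 to 0.996), and 384 of 9814 genes had r of at least 0.9. Ebi3, a subunit of the cytokines IL-27 and IL-35, had 62.4, 56.9 and 58.8 normalized counts in isotype control against 55.0, 85.8 and 86.2 in DTA-1. For Cd74 these values describe 2 libraries that stand apart from 4, and all points share the depth and composition of their library.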

How the data were processed

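RNA from 6 libraries of sorted ILC2s was sequenced. The submitters' processing notes name bcl2fastq 2.17.1.14, STAR 2.5.3a, Partek and the build mm10. The authors deposited expected counts per gene (estimated reads, not normalized), of which 77.8% were exactly whole as written. The annotation release and the use of strand are not given in the sources used here. Of 49721 symbols shared with GENCODE vM21 (GRCm38), 48290 had the same start, and transcript lengths were taken from that release.

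Expected counts were rounded. Genes were filtered by filterByExpr, which left 14361, and tested with edgeR 4.0.16 (TMM, robust quasi-likelihood, R 4.3.3) without covariates. Alternatives were other size factors, DESeq2 1.42.0, limma-trend 3.58.1, other filters and thresholds, the replicate block, each library left out, the exon union as gene length and marker sums without their highest gene. On simulated data with 200 genes changed 2-fold, 182 were recovered among 14130 genes, with 9 false calls. The simulation drew all genes with a common dispersion (0.0256), left genes of the lowest levels unchanged and shifted every DTA-1 library alike. The share recovered thus does not hold for genes of low count, or where a DTA-1 library lies with the isotype control. The 8 genes and the lists were chosen with earlier results of these data known. In each list the genes that passed the test were named and, where none did, up to 4 with the highest mean, beside those said to be singled out and markers named for being at 0 or against Cd74. Total counts per library were 30569351 to 35131329. Some genes of the lists are not reported here.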

Additional observations from a re-analysis of the deposited data

How the results depend on the processing

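With all libraries the number of the 8 genes that passed the test was 0 under the other size factors, DESeq2's Wald test, limma-trend, both other filters, the replicate block and no fold limit. It was 1 (Cd74) at an unadjusted p, and 0 to 1 with each library left out. For the pathway lists the number was 1 at an unadjusted p (Pdcd1lg2) and 0 to 3 with each library left out. Over all genes it was 25 by DESeq2's Wald test, 2 with no filter, 1 with the replicate block, 337 at an unadjusted p and 0 to 111 with each library left out. The counts of 1, 3 and 111 came without DTA-1 replicate 1, and the cause was not tested. Of 90 recomputed log2 fold changes of single genes, 80 kept their direction and their side of the threshold, 1 (Cd74) passed it and 9 changed sign. All 9 came from leaving out 1 library, where the value ran from -0.31 to 0.56 for H2-Aa, from -0.13 to 0.14 for H2-Ab1, from -0.30 to 0.024 for H2-DMa and from -0.47 to 1.69 for Cd80. Same-numbered libraries did not deviate together (correlations of -0.007, -0.003 and 0.015), so no pairing by number was seen. The labels name no pairs, and the split of DTA-1 replicate 1 from the other DTA-1 libraries could hide them. With the replicate block Cd74 had a log2 fold change of 0.92. Depth limits Cd80, Cd86, H2-Aa and Ciita, with 0 to 93 counts in a library.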
